A study of Homo sapiens with 72 samples.

Results

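The genes that make microRNAs (miRNAs) and load them into silencing complexes were measured as mRNAs in cancer cells lacking the terminal uridyl transferases TUT4 and TUT7. The set was a fixed list of 10 genes, namely DROSHA, DGCR8, XPO5, DICER1, TARBP2, PRKRA, AGO1, AGO2, AGO3 and AGO4. All 10 were found by symbol among the 26485 genes of the count files and all 10 were among the 15556 genes that passed the filter on low counts. Each was compared between mutant and wild-type cells in every line and clone.

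miRNAs are cut from hairpins in longer transcripts. DROSHA and its partner DGCR8 release the hairpin in the nucleus, Exportin-5 (XPO5) carries it to the cytoplasm, and DICER1, with the double-stranded RNA binding proteins TRBP (TARBP2) and PACT (PRKRA), trims it to the duplex from which an Argonaute protein (AGO1 to AGO4) takes the guide strand. TUT4 and TUT7 add uridines to hairpin precursors between these cytoplasmic steps, and in the presence of the RNA-binding protein LIN28A they uridylate let-7 precursors so that DICER1 does not process them.

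The study comprised 36 poly(A)-selected mRNA libraries in 9 groups of 4, with a small RNA library for each. IGROV1, an ovarian cancer line that expresses LIN28A, and DU145, a prostate cancer line that does not, were each used as parental cells and as 2 clones (mutant 1 and mutant 2) in which exon 12 of TUT4 and exon 14 of TUT7 were both targeted with a Cas9 nickase. The third background, LIN28A-OE DU145, was parental DU145 or its mutants carrying a LIN28A transgene driven by a CMV promoter from a lentivirus under puromycin selection, while the other 6 groups carried no transgene. The clone labels of mutant 1 and mutant 2 were shared between DU145 and LIN28A-OE DU145, so these are not independent clones. In mutant 2 of DU145 and in both IGROV1 mutants the last number of the clone label ran with the replicate, and whether these were subclones was not given. Replicates were consecutive passages: 8 to 12 for the DU145 mutants and far later ones for DU145 wild type, 6 to 9 for IGROV1 wild type, 2 to 6 for its mutants and 1 to 4 for all LIN28A-OE groups. The p-values therefore measure the spread between passages of one culture, each clone stands for 1 founder, and the effect of the mutations cannot be told apart from that of cloning or passage.

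The mRNA libraries held between 7195437 and 25054688 gene counts. TUT7 mRNA was lower in all 6 clones (log2 fold change -0.85 to -1.60). TUT4 mRNA was lower in 4 of them (-1.50 to -2.22), whereas in mutant 2 it differed by -0.56 in DU145 (adjusted p = 0.0708, edgeR quasi-likelihood test) and by -0.25 in LIN28A-OE DU145 (adjusted p = 0.465); mRNA does not report on protein. LIN28A averaged 202 to 266 counts per 1000000 gene counts (CPM) in the 3 IGROV1 groups and was at most 0.46 in DU145. Of the lineage markers, PAX8 was at 427 to 854 CPM in IGROV1, while WT1, MUC16 and ESR1 reached at most 2.79; MUC16 reached 54.3 in DU145 and 173 in LIN28A-OE DU145. DU145 expressed KRT8, KRT18 and KRT19, with KLK3, TMPRSS2 and HOXB13 at or near 0; HOXB13 was at 4.71 to 22.8 CPM in IGROV1. The summed CPM of 5 epithelial markers differed between clones, at 1118 to 1242 in IGROV1 wild type, 710 to 1204 in mutant 1 and 324 to 380 in mutant 2, and at 1442 to 2522, 1757 to 2347 and 2718 to 3573 in the same groups of DU145; in LIN28A-OE DU145 the values were 1443 to 2584, 1876 to 2329 and 2372 to 3150. Of 5 mesenchymal markers, in sum almost all VIM, the values were 1014 to 1237, 682 to 783 and 1343 to 1436 in IGROV1, 1056 to 1538, 1339 to 1757 and 1220 to 1810 in DU145 and 847 to 1115, 821 to 1190 and 538 to 609 in LIN28A-OE DU145. Of 5 leukocyte or endothelial markers they were 89.0 to 122, 22.1 to 38.2 and 56.1 to 97.6 in IGROV1, where CDH5 was at 9.95 to 94.9 CPM, and 20.7 to 89.9 in the others, with PTPRC at most 0.343 and CD3E at 0 in all libraries. The part of these differences in the results was not tested.

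Levels were given as CPM, and fold changes and their standard errors (SE) came from a fit of all 36 libraries that also scales for library composition (TMM), so a fold change can differ slightly from the ratio of mean CPM. A difference was called when its Benjamini-Hochberg adjusted p over all genes tested was under 0.01, the false discovery limit of the study. In bulk RNA, fewer cells with a transcript and less transcript per cell cannot be told apart.

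Per kilobase of the canonical transcript, the 10 mRNAs fell into 3 tiers. XPO5, DROSHA, TARBP2 and PRKRA were the most abundant, with medians over the 9 group means of 28.6, 26.8, 26.5 and 21.8 CPM per kb. DGCR8 and DICER1 followed at 12.01 and 10.7. The Argonaute mRNAs were lowest, at 3.51 for AGO1, 3.47 for AGO4, 2.21 for AGO2 and 0.598 for AGO3. The canonical AGO1, AGO2 and AGO3 transcripts are 13712, 14595 and 19660 bases long, and the values would be higher if shorter isoforms were used. DICER1 varied most between groups, with a span of 2.43 from the lowest to the highest group mean of log2 CPM, followed by AGO4 (1.99) and DROSHA (1.65), and DGCR8 varied least (0.39).

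**Figure D1:**
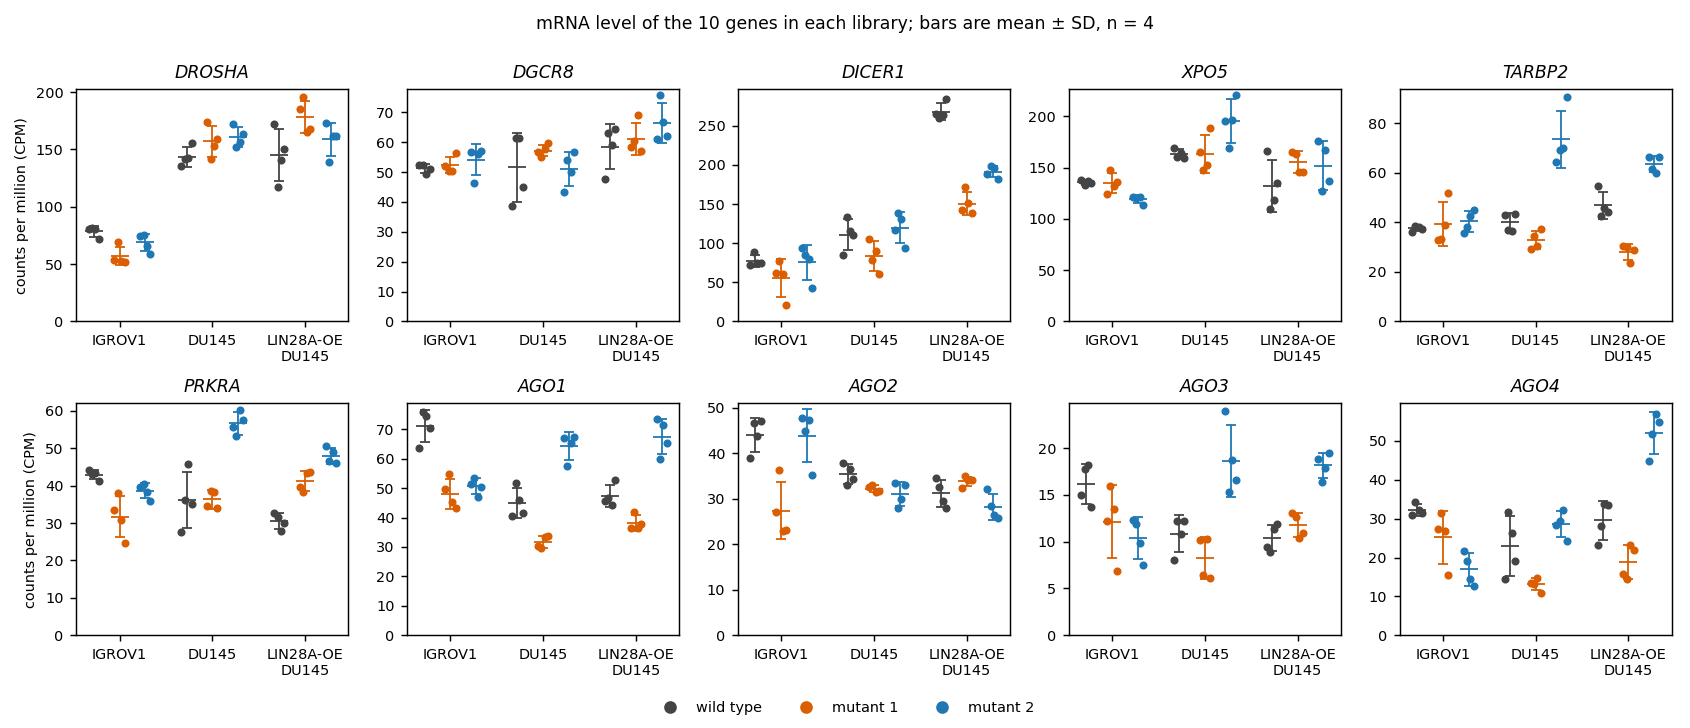
Level of each of the 10 mRNAs in CPM (vertical axes, linear from 0) in the 36 libraries, with each point a library and bars the mean ± SD of 4. Each panel shows IGROV1, DU145 and LIN28A-OE DU145 from left to right, with wild type in dark grey, mutant 1 in orange and mutant 2 in blue; DICER1 in LIN28A-OE DU145 wild type (260 to 284 CPM) lies above every other library of that gene.

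Across the 6 comparisons of a clone with its wild type, 60 values in all, 9 were called higher, 13 were called lower and 38 were not called. In 20 of the 22 called values the 4 libraries of the clone did not overlap the 4 of the wild type, as was so for 90.3% of all called values over all genes in these comparisons. AGO1 was the only member called in all 6, lower in 4 and higher in 2, and DGCR8 and XPO5 were called in none. In IGROV1 every called value was a decrease, 4 in mutant 1 and 3 in mutant 2, against 16.6% and 15.9% of all genes tested called lower and 14.5% and 14.2% called higher. In DU145, mutant 1 had 2 decreases (11.3% of all genes lower, 10.4% higher), while mutant 2 had 4 increases (9.99% of all genes higher, 10.5% lower). In LIN28A-OE DU145, mutant 1 had 4 decreases and 1 increase (13.9% of all genes lower, 11.3% higher) and mutant 2 had 4 increases (10.5% of all genes higher, 10.1% lower). The median log2 change of the 10 members was -0.36 and -0.19 in IGROV1 mutants 1 and 2, -0.21 and 0.17 in DU145 mutants 1 and 2 and 0.04 and 0.19 in those of LIN28A-OE DU145, where the median of all genes lay within 0.01 of 0. Scaled by library totals, which moved the median of all genes to 0.11 and 0.14 in DU145 and LIN28A-OE DU145 mutant 2, calls over all genes were 2297 higher and 1191 lower (1554 and 1638 by TMM) and 2437 and 1090 (1635 and 1569). The 2 clones of a background share their wild-type libraries.

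**Figure D2:**
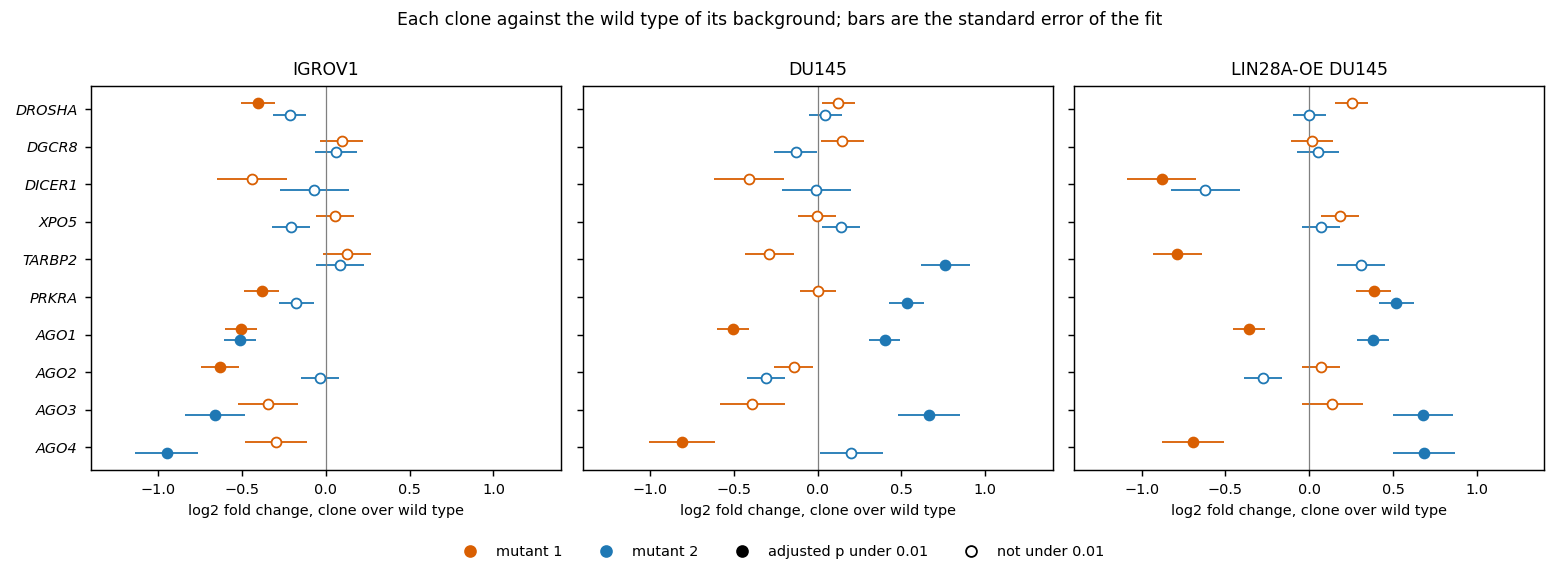
Log2 fold change of each gene in each clone against the wild type of its background (horizontal axis), with bars for the SE of the fit and filled points for adjusted p under 0.01. AGO1 is filled in all 6 comparisons, from -0.51 in IGROV1 mutant 2 to 0.40 in DU145 mutant 2, and TARBP2 moves in opposite directions in DU145 mutant 2 (0.76) and LIN28A-OE DU145 mutant 1 (-0.79).

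The nuclear step was considered first. DROSHA, the RNase III enzyme of the nuclear complex, separated the lines. In IGROV1 wild type it was at 80.6, 81.1, 81.0 and 71.6 CPM and in DU145 wild type at 136, 141, 142 and 156 CPM, with no overlap. The difference was 0.79 on the log2 scale (SE 0.0991, adjusted p = 1.36e-08, edgeR), in a comparison in which 60% of all genes tested were called. In IGROV1 mutant 1 DROSHA was at 53.7, 69.2, 53.0 and 52.1 CPM, below every wild-type library (log2 fold change -0.40, SE 0.0993, adjusted p = 0.00128). Mutant 2 of IGROV1 (59.2 to 75.6 CPM) overlapped its wild type and was not called, nor was any DU145 or LIN28A-OE DU145 clone, where DROSHA ranged from 117 to 195 CPM. In LIN28A-OE DU145 mutant 1 the value was 0.25 (adjusted p = 0.043), and without wild-type replicate 1 it was 0.34 (adjusted p = 0.00607).

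DGCR8, the RNA-binding partner of DROSHA, was between 38.8 and 75.9 CPM in all 36 libraries, and all neighbours in the order of its 9 group means overlapped. Its log2 change ranged from -0.13 to 0.15 over the 6 clones. Hairpins within the DGCR8 mRNA are known targets of DROSHA and DGCR8 themselves, and 1 of them, miR-1306, lies in exon 2 of 14, within the coding sequence (GRCh38, chr22:20086072-20086129, plus strand). Its products are shown because they come from this transcript, with the seed (bases 2 to 8) in capitals, sequences from RefSeq GRCh38.p14.
miR-1306-5p: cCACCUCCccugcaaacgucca
miR-1306-3p: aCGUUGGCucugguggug

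Small RNA libraries held 5707942 to 14067165 miRNA reads, of which miR-1306-3p had 17 to 168. In IGROV1 it was at 6.57 to 8.67 CPM of miRNA reads in wild type and 2.98 to 4.10 in mutant 1, without overlap (log2 fold change -1.22, adjusted p = 9.31e-07, edgeR over 929 miRNAs). In DU145 it was at 8.40 to 17.1 in wild type and 6.31 to 6.96 in mutant 1 (-0.78, adjusted p = 0.000389). Scaled by library totals in place of TMM, the same values were -1.20 and -0.96 and both stayed past the threshold. In the other 4 clones the TMM values were -0.54 to -0.68. By TMM it was called lower in IGROV1 mutant 2 and both LIN28A-OE DU145 clones but not in DU145 mutant 2. With library totals none of the 4 was past the threshold (-0.01 to -0.60). In these comparisons 37.2%, 41.1%, 30.6%, 26.2%, 34.3% and 25.2% of all miRNAs were called (IGROV1, DU145 and LIN28A-OE DU145, mutant 1 before mutant 2). The 5p product of the same hairpin changed by -0.36 to 0.59 by TMM and was called in LIN28A-OE DU145 mutant 1 (0.59, adjusted p = 0.00778; 0.0612 with library totals).

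XPO5, the exporter of the hairpin, was between 109 and 221 CPM and was not called in any clone (log2 change -0.20 to 0.18). In IGROV1 mutant 2 its 4 libraries (114 to 122 CPM) lay below the 4 of wild type (133 to 138 CPM), with a log2 difference of -0.20 (SE 0.113, adjusted p = 0.155). In LIN28A-OE DU145 mutant 1 (145 to 166 CPM) against wild type (109 to 166 CPM) the value was 0.18 (adjusted p = 0.21), and 0.32 (adjusted p = 0.00422) when 6 libraries low in long transcripts, named with the DICER1 values, were left out. The paper names a directional kit for the mRNA libraries, but the strand setting of the counting was not given. Every member except AGO4 overlaps at least 1 annotated gene on the opposite strand. Those found in the files by their current symbol are POLR1C (31.5 to 56.3 CPM, with XPO5), TRMT2A (24.8 to 66.9 CPM, with DGCR8) and DICER1-AS1 (0.41 to 5.37 CPM, with DICER1). Older symbols of the overlapping genes were not looked up, and PRKRA overlaps the protein-coding gene PJVK. Without strand, reads from such pairs cannot be told apart.

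DICER1, which cuts the hairpin in the cytoplasm, showed its widest tested difference between DU145 wild type with and without the LIN28A transgene. These groups also differed in lentiviral transduction, puromycin selection and passage, so an effect of LIN28A cannot be told apart from these. In DU145 wild type it was at 84.6, 133, 115 and 111 CPM, and in LIN28A-OE DU145 wild type at 265, 260, 264 and 284 CPM. The groups did not overlap, and the difference was 1.29 on the log2 scale (SE 0.209, adjusted p = 4.24e-05, edgeR). DICER1 was the only member called between these groups, against 9.21% of all genes tested. It was called in all alternatives that were run, including each library left out in turn.

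Within LIN28A-OE DU145, DICER1 was lower in the mutants. Mutant 1 had 142, 171, 151 and 138 CPM and mutant 2 had 188, 198, 196 and 183 CPM, so the 3 groups did not overlap. Against wild type the log2 change was -0.88 in mutant 1 (SE 0.207, adjusted p = 0.00102), called in all alternatives. In mutant 2 it was -0.62 (SE 0.206, adjusted p = 0.0201), not called, although it was with the replicate number as a block (adjusted p = 0.00644), by DESeq2 (0.00967), in a fit of the 12 libraries of this background (5.08e-05) and without the libraries low in long transcripts (4.26e-06). Scaled by library totals it was -0.49 (adjusted p = 0.0985). With both clones averaged DICER1 was lower (-0.75, adjusted p = 0.00117) and PRKRA higher (0.45, adjusted p = 0.000307), against 17.9% of all genes called. LIN28A itself was not equal between these groups, at 64.8 to 74.7 CPM in wild type, 325 to 406 in mutant 1 and 229 to 320 in mutant 2, so the transgene level and the mutations cannot be told apart.

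In the other backgrounds DICER1 was not called in any clone. In IGROV1 it was at 71.6, 89.0, 74.2 and 74.4 CPM in wild type, 61.6, 77.4, 60.9 and 21.1 in mutant 1 and 94.0, 84.6, 79.6 and 43.2 in mutant 2, and replicate 4 was the lowest library of both clones. In DU145 mutant 1 it was at 105, 78.3, 90.5 and 60.9 CPM and in mutant 2 at 117, 139, 131 and 93.5 CPM, and replicate 4 was again lowest in both. These low values moved with a property of the whole library. In 6 libraries the median deviation of the 20% of genes with the longest transcripts from their group mean was at least 0.2 on the log2 scale below that of the 20% with the shortest. They were replicate 4 of IGROV1 mutant 1 (-0.65) and mutant 2 (-0.46), replicate 4 of DU145 mutant 1 (-0.33) and mutant 2 (-0.30), and replicate 1 of DU145 wild type (-0.37) and of LIN28A-OE DU145 wild type (-0.20). DICER1, with a canonical transcript of 10384 bases, was at 0.382, 0.574, 0.727, 0.780 and 0.763 of its group mean in the first 5 of them and at 0.987 in the last. AGO1, at 13712 bases, was at 0.896 to 1.06 of its group mean in the same 6. This did not hold for all Argonautes. AGO3 and AGO4 were lowest of their group in replicate 4 of IGROV1 mutant 2 (7.50 and 12.6 CPM). They were also lowest in replicate 1 of DU145 wild type (8.08 and 14.5 CPM). AGO3 was not lowest in replicate 4 of DU145 mutant 2 or replicate 1 of LIN28A-OE DU145 wild type. The AGO3 and AGO4 fold changes given below include the libraries low in long transcripts.

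**Figure D3:**
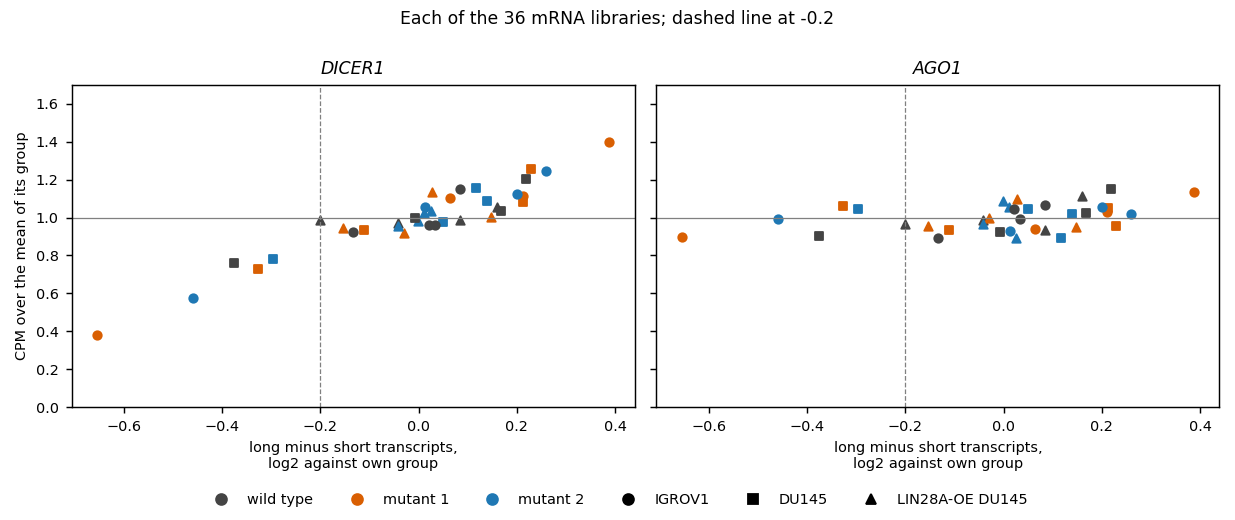
Each of the 36 mRNA libraries by the deviation of long from short transcripts (horizontal axis, log2, relative to the mean of its own group) and by the CPM of DICER1 or AGO1 over its group mean (vertical axes, from 0). Points left of the dashed line at -0.2 are the 6 libraries low in long transcripts; DICER1 is lowest in the library at -0.65 (IGROV1 mutant 1 replicate 4, 21.1 CPM), and AGO1 in the same library is at 43.1 CPM.

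Leaving these 6 libraries out, the DICER1 value in DU145 mutant 1 was -0.39 (adjusted p = 0.0036; -0.41 and 0.13 with all libraries). With the deviation as a covariate, DICER1 was also called lower in IGROV1 mutant 1 (-0.55, adjusted p = 7.15e-06; -0.44 and 0.0907 without it), but leaving the libraries out gave -0.18 there (adjusted p = 0.128). Both settings were chosen after the data were seen.

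let-7 miRNAs and the miR-103 and miR-107 family are described in the literature as repressors of DICER1, the former through matches in its coding sequence and the latter through its 3′ UTR. The canonical DICER1 transcript (GRCh38, minus strand) held 4 matches to the letters CTACCTC, the complement of the let-7 seed, all in the coding sequence, and 6 to ATGCTGC, the complement of the miR-103 and miR-107 seed, of which 5 were in the 3′ UTR and 1 in the coding sequence. Only the transcript strand was searched. The let-7 letters occurred at least once in 45.1% of 452 canonical transcripts within 10% of this length and in 22.03% of all 20046, and the miR-103 and miR-107 letters in 64.6% and 30.3%. The median number of matches in the 452 was 0 for let-7 and 1 for miR-103 and miR-107. The coding matches to let-7 and the mature miRNAs are shown to let the pairing be read, with the match or the seed in capitals.
chr14:95107888-95107910: tcagcatactgtgttCTACCTCt
chr14:95103748-95103770: tacccgtgcaaccaaCTACCTCa
chr14:95103640-95103662: gaaatgctaacaaatCTACCTCa
chr14:95094106-95094128: agatgcgattttggaCTACCTCa
let-7a-5p: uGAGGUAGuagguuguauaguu
let-7d-5p: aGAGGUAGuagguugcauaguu
let-7g-5p: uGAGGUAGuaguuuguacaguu
let-7i-5p: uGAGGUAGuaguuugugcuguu
miR-98-5p: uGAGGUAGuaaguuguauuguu
miR-103a-3p: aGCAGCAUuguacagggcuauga
miR-107: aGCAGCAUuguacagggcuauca

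The group with the highest DICER1 was among the lowest in the summed reads of 9 let-7 family members, although IGROV1 mutant 2, where DICER1 was at 43.2 to 94.0 CPM, was as low and overlapped it. LIN28A-OE DU145 wild type had 16245 to 20496 CPM of let-7 reads, against 72625 to 82996 in DU145 wild type, and all 9 miRNAs were lower (log2 fold change -0.57 to -4.27, against 11.4% of all miRNAs called in either direction; 8 of 9 also with library totals). The DU145 mutants lay between these groups, at 51246 ± 2693 in mutant 1 and 56105 ± 5543 in mutant 2 (mean ± SD, n = 4). Mutant 1 thus had less let-7 than DU145 wild type, and its mean DICER1 was lower too (83.7 against 111 CPM, not called). In mutant 2 mean DICER1 was 120 CPM. In the LIN28A-OE mutants the sum was 29243 to 61648 in mutant 1 and 38178 to 51129 in mutant 2, with DICER1 at 138 to 171 and 183 to 198 CPM. let-7b, let-7d, let-7f, let-7g and let-7i were higher in both under both scalings (TMM values 1.32 to 3.85). IGROV1 wild type had 23531 to 26583 CPM of let-7 reads with DICER1 at 71.6 to 89.0 CPM. Its mutant 1 had more let-7 (35021 to 36034) and its mutant 2 less (16911 to 20191), with DICER1 not called in either. miR-107 and miR-103a-3p, which share a seed, did not move together. Their sequences above differ only in the base before the last, so reads that end before it fit both. How such reads were assigned was not tested. miR-107 was higher in 4 clones under both scalings, namely both of IGROV1 (1.08 and 1.14), DU145 mutant 1 (0.72) and LIN28A-OE DU145 mutant 1 (0.46). miR-103a-3p, at group means of 9728 to 14975 CPM of miRNA reads, was called in no clone under both scalings. By TMM its values were -0.21 and -0.22 in IGROV1, 0.32 and -0.01 in DU145 and -0.25 and -0.49 in LIN28A-OE DU145 (mutant 1 before mutant 2). Between LIN28A-OE DU145 and DU145 wild type it was higher under both scalings (0.52), where DICER1 was higher too. In mutant 2 of both DU145 backgrounds, the median of all miRNAs was -0.09 and -0.15 by TMM but 0.37 and 0.42 by library totals, and the signs of both miRNAs turned, so no direction is given there. Whether let-7 or miR-107 acted on DICER1 was not tested.

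**Figure D4:**
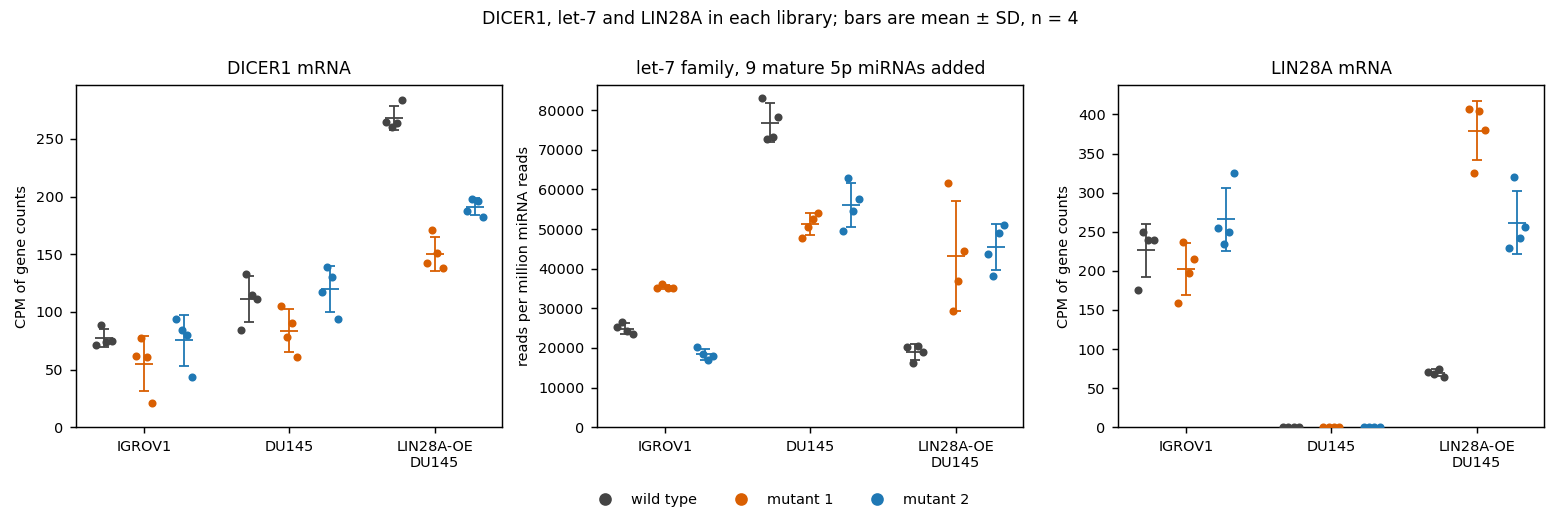
DICER1 mRNA in CPM, the summed level of 9 let-7 family miRNAs in CPM of miRNA reads and LIN28A mRNA in CPM (vertical axes, from 0) in each library of the 9 groups, with bars for the mean ± SD of 4. LIN28A-OE DU145 wild type has the highest DICER1 (260 to 284 CPM) beside 16245 to 20496 CPM of let-7 reads, and DU145 wild type has the most let-7 (72625 to 82996) with DICER1 at 84.6 to 133 CPM.

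The DICER1 partners differed mostly between clones. TARBP2, which encodes TRBP, was at 43.0, 37.0, 36.6 and 43.5 CPM in DU145 wild type, 29.3, 34.5, 30.3 and 37.4 in mutant 1 and 64.2, 69.0, 70.1 and 90.4 in mutant 2. Mutant 2 lay above all other DU145 libraries, with a log2 change of 0.76 against wild type (SE 0.146, adjusted p = 0.000121), and mutant 1 overlapped the wild type (-0.29, adjusted p = 0.134). With the transgene TARBP2 was at 54.7, 42.7, 45.9 and 44.1 CPM in wild type, 30.3, 29.8, 23.5 and 28.8 in mutant 1 and 66.4, 61.6, 59.9 and 66.4 in mutant 2. None of these groups overlapped. Mutant 1 was lower (-0.79, SE 0.146, adjusted p = 6.44e-05) and mutant 2 differed by 0.31 (adjusted p = 0.109; 0.44 and 0.00669 scaled by library totals). In IGROV1 TARBP2 was at 32.7 to 51.7 CPM in all 12 libraries and was not called.

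PRKRA, which encodes PACT, rose in mutant 2 of both DU145 backgrounds and in mutant 1 with the transgene, and fell in IGROV1 mutant 1. In DU145 it was at 27.7, 36.03, 45.9 and 35.2 CPM in wild type, 34.5, 38.5, 38.4 and 33.9 in mutant 1 and 55.7, 53.1, 60.3 and 57.5 in mutant 2 (0.53, SE 0.105, adjusted p = 0.000182). In LIN28A-OE DU145 it was at 32.7, 31.5, 27.9 and 30.1 CPM in wild type, below mutant 1 at 39.8, 38.2, 43.4 and 43.6 (0.38, SE 0.104, adjusted p = 0.00418) and mutant 2 at 50.5, 46.6, 48.9 and 46.0 (0.52, SE 0.105, adjusted p = 0.000238). The groups did not overlap. In mutant 1 the call was lost without wild-type replicate 3 or 4 or mutant replicate 4 (adjusted p 0.0108 to 0.0213). In IGROV1 PRKRA was at 44.2, 43.1, 43.3 and 41.3 CPM in wild type and 33.5, 37.9, 30.9 and 24.6 in mutant 1, with no overlap (-0.38, SE 0.105, adjusted p = 0.00367; 0.0108 to 0.0247 without wild-type replicate 1 or mutant replicate 3 or 4). Mutant 2 (35.9 to 40.6 CPM) lay below the wild type but was not called (-0.18, adjusted p = 0.182).

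AGO1, which with the other Argonautes holds the guide strand, was lower in both IGROV1 clones. It was at 63.6, 75.9, 74.5 and 70.5 CPM in wild type, 49.6, 54.6, 45.1 and 43.1 in mutant 1 and 51.6, 53.4, 47.1 and 50.4 in mutant 2. Neither clone overlapped the wild type, and the log2 changes were -0.50 (SE 0.0934, adjusted p = 4.19e-05) and -0.51 (SE 0.0929, adjusted p = 3.33e-05). In DU145 the clones went apart: wild type was at 40.5, 51.7, 46.1 and 41.6 CPM, mutant 1 lower at 30.4, 29.8, 33.4 and 33.8 (-0.50, SE 0.0955, adjusted p = 0.000115) and mutant 2 higher at 67.1, 57.4, 65.3 and 67.3 (0.40, SE 0.0943, adjusted p = 0.00126). The call in DU145 mutant 2 was lost without wild-type replicate 4 (0.0104) or mutant replicate 4 (0.011).

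With the transgene AGO1 was at 45.7, 46.7, 44.1 and 52.7 CPM in wild type, 36.5, 41.8, 36.3 and 38.0 in mutant 1 (-0.36, SE 0.0938, adjusted p = 0.0029) and 73.3, 60.0, 71.4 and 65.2 in mutant 2 (0.38, SE 0.0933, adjusted p = 0.00197). The 3 groups did not overlap, and mutant 1 again lay below and mutant 2 above the wild type, as in DU145, whose clone labels they share. These calls were lost in mutant 1 without wild-type replicate 4 or mutant replicate 1 or 3 (adjusted p 0.0123 to 0.0234) and in mutant 2 without wild-type replicate 3 or mutant replicate 1 or 3 (0.0105 to 0.0195).

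AGO2, the human Argonaute best known for slicing its target, was called only in IGROV1 mutant 1. Wild type had 38.9, 46.6, 43.9 and 47.1 CPM and mutant 1 had 27.0, 36.4, 22.9 and 23.2, without overlap (-0.63, SE 0.114, adjusted p = 3.22e-05). Mutant 2 of IGROV1 was at 47.9, 44.9, 47.3 and 35.3 CPM, and the difference between the clones was itself called (-0.59, adjusted p = 0.000122). In the 24 DU145 and LIN28A-OE DU145 libraries AGO2 stayed between 25.9 and 37.8 CPM.

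AGO3 was the least abundant member, with 44 to 365 counts per library. In IGROV1 it was at 14.96, 17.8, 18.2 and 13.7 CPM in wild type and 12.3, 11.9, 9.86 and 7.50 in mutant 2 (-0.66, SE 0.179, adjusted p = 0.00333). In DU145 it was at 8.08, 12.3, 10.9 and 12.3 CPM in wild type and 23.9, 15.3, 18.7 and 16.6 in mutant 2 (0.67, SE 0.185, adjusted p = 0.00579), and in LIN28A-OE DU145 at 9.46, 8.89, 11.3 and 11.9 in wild type and 18.8, 16.3, 17.9 and 19.5 in mutant 2 (0.68, SE 0.181, adjusted p = 0.00418). In each of these the groups did not overlap. Each call was lost when any of 4 single libraries was left out, with adjusted p of 0.0111 to 0.0181 (IGROV1, wild type 2 or 3, mutant 3 or 4), 0.0121 to 0.0368 (DU145, wild type 1 or 3, mutant 1 or 3) and 0.0123 to 0.0192 (LIN28A-OE DU145, wild type 1 or 2, mutant 1 or 4).

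AGO4 had the largest Argonaute decrease. In IGROV1 it was at 30.9, 34.4, 32.1 and 31.5 CPM in wild type and 21.7, 19.2, 14.5 and 12.6 in mutant 2, without overlap (-0.95, SE 0.186, adjusted p = 9.31e-05). In DU145 wild type it was spread over 14.5, 31.8, 26.4 and 19.2 CPM and mutant 1 was at 13.5, 13.2, 14.7 and 10.98, overlapping it (-0.81, SE 0.194, adjusted p = 0.00159; 0.0134 without wild-type replicate 2). In LIN28A-OE DU145 AGO4 was at 23.1, 28.1, 33.8 and 33.4 CPM in wild type, 15.8, 14.6, 23.3 and 21.8 in mutant 1 (-0.69, SE 0.186, adjusted p = 0.00365) and 44.7, 51.8, 57.1 and 54.8 in mutant 2 (0.68, SE 0.184, adjusted p = 0.00442). Mutant 1 overlapped the wild type and mutant 2 did not. The mutant 1 call was lost without wild-type replicate 3 or 4 or mutant replicate 1 or 2 (0.0109 to 0.0228), and the mutant 2 call without wild-type replicate 1 or 2 or mutant replicate 2, 3 or 4 (0.0107 to 0.022).

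AGO4, AGO1 and AGO3 lie in this order on the plus strand of chromosome 1 (GRCh38, 35808016 to 36072500), and AGO3 starts 186 bases after the annotated end of AGO1. They were all lower in IGROV1 mutant 2 and, against mutant 2, in DU145 mutant 1. In LIN28A-OE DU145 mutant 2 they were all higher than in wild type (0.68, 0.38 and 0.68 in the same order). In the other clones against wild type they were not all called. Only AGO1 of them was called in IGROV1 mutant 1. In DU145, AGO3 was not called in mutant 1 (-0.39, adjusted p = 0.119, edgeR) nor AGO4 in mutant 2 (0.20, adjusted p = 0.453). In LIN28A-OE DU145 mutant 1, AGO4 and AGO1 were lower but AGO3 differed by 0.14 (adjusted p = 0.588). Of 17 other protein-coding genes tested within 500 kb on either side, a window chosen after these values were seen, 3 were higher and 1 lower in IGROV1 mutant 1 (median log2 change -0.03) and 3 higher and 7 lower in mutant 2 (-0.39). In DU145 0 were higher and 4 lower in mutant 1 (0.02) and 1 higher and 1 lower in mutant 2 (0.16), and in LIN28A-OE DU145 0 and 4 in mutant 1 (-0.15) and 2 and 1 in mutant 2 (0.02). The shares of all genes called in these comparisons were 14.5% higher and 16.6% lower, 14.2% and 15.9%, 10.4% and 11.3%, 9.99% and 10.5%, 11.3% and 13.9%, and 10.5% and 10.1%, in the same order. Copy number of the region was not measured.

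The clones were also compared with each other. In DU145 5 members differed between mutant 1 and mutant 2, all lower in mutant 1 and none overlapping, against 31.1% of all genes called in either direction and 42.2% not overlapping. By direction, 2437 of the 15556 genes tested were higher in mutant 1 and 2398 lower. The members were TARBP2 (-1.05, adjusted p = 6.08e-07), AGO3 (-1.05, 2.71e-05), AGO4 (-1.01, 7.31e-05), AGO1 (-0.90, 2.55e-09) and PRKRA (-0.53, 0.000123). In LIN28A-OE DU145 3 differed, again lower in mutant 1, against 37.6% of all genes in either direction (2745 higher and 3110 lower). They were AGO4 (-1.38, adjusted p = 2.57e-07), TARBP2 (-1.09, 2e-07) and AGO1 (-0.74, 7.61e-08). In IGROV1 AGO2 and AGO4 (0.65, adjusted p = 0.00779) differed, in opposite directions, against 18.8% of all genes. The AGO4 call in IGROV1 was lost without mutant 1 replicate 1, 2 or 3 or mutant 2 replicate 2, 3 or 4 (0.0124 to 0.0381).

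With both clones averaged, IGROV1 had 5 members lower than wild type, AGO1 (-0.51, adjusted p = 2.6e-06), AGO4 (-0.62, 0.00149), DROSHA (-0.31, 0.00325), AGO2 (-0.33, 0.00553) and AGO3 (-0.50, 0.0074), against 33.2% of all genes called in either direction (2352 higher and 2820 lower of 15556). The DROSHA, AGO2 and AGO3 calls were each lost without any of several wild-type or mutant libraries, wild-type replicate 3 and mutant 1 replicate 4 among them for all 3 (adjusted p 0.0109 to 0.0379 over the libraries). DU145 had none, against 18.1%. The difference between the IGROV1 and DU145 effects was tested itself and was called for PRKRA (-0.55, SE 0.128, adjusted p = 0.00105) and AGO1 (-0.46, SE 0.115, adjusted p = 0.00201; 0.0124 without DU145 wild-type replicate 4), against 24.2% of all genes. The AGO1 mean over both DU145 clones combines a decrease and an increase, and the PRKRA mean combines 0.004 in mutant 1 and 0.53 in mutant 2. Between LIN28A-OE DU145 and DU145 no member's effect differed, against 0.489% of all genes; for DICER1 the difference was -0.54 (adjusted p = 0.389), and it was called without the libraries low in long transcripts (-0.55, adjusted p = 0.00628).

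Between the wild-type lines, the Argonaute mRNAs and PRKRA were lower in DU145 than in IGROV1 and DROSHA was higher, so 6 of the 10 were called, the same share as the 60% of all genes. The log2 differences were -0.74 for AGO1 (adjusted p = 2.12e-08), -0.65 for AGO3 (0.00218), -0.57 for AGO4 (0.00781), -0.39 for AGO2 (0.00305) and -0.32 for PRKRA (0.0068). With library totals the calls of AGO2, AGO3, AGO4 and PRKRA were lost (adjusted p 0.012 to 0.0521), and each was also lost without single libraries, AGO3 without DU145 replicate 1 or IGROV1 replicate 3, AGO2 without DU145 replicate 2, 3 or 4 or IGROV1 replicate 2, 3 or 4, AGO4 without DU145 replicate 1 or 4 or any IGROV1 replicate and PRKRA without DU145 replicate 1, 2 or 4 or IGROV1 replicate 1, 2 or 3 (0.01003 to 0.0525). Groups with and without the transgene were also compared within mutants, where transduction, selection and passage again differed along with LIN28A. AGO4 was higher in LIN28A-OE mutant 2 than in DU145 mutant 2 (0.86, adjusted p = 0.000759), where it was at 24.4 to 32.2 CPM, against 19% of all genes called, and no member was called in mutant 1, against 3.1%. DICER1 was higher with the transgene in both without overlap, by 0.82 (adjusted p = 0.0119) and 0.68 (adjusted p = 0.0122), and both passed the threshold with the replicate number as a block (0.00367 and 0.00357).

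Among 42 other genes of the pathway that were tested, on lists of nuclear partners, transport factors, Argonaute chaperones and effectors, and miRNA turnover factors, between 0 and 5 were called higher and between 0 and 5 lower in each clone. In IGROV1 5 were higher and 5 lower in mutant 1 and 4 and 5 in mutant 2. Of all genes tested, 14.5% were called higher and 16.6% lower in IGROV1 mutant 1, and 14.2% and 15.9% in mutant 2. In the DU145 and LIN28A-OE DU145 clones these shares were 9.99% to 11.3% higher and 10.1% to 13.9% lower. Of 7 terminal nucleotidyltransferases, a separate list that holds TUT4 and TUT7 themselves, none was called higher in any clone and between 1 and 4 were called lower. The effectors bound by Argonaute held most of those called in both IGROV1 clones: MOV10, an RNA helicase, was lower (-0.87 and -0.79), as was TNRC6A, a scaffold that links Argonaute to deadenylases (-0.52 and -0.83), whereas the RNA-binding protein gene FXR2 (0.86 and 0.78) and AJUBA (0.48 and 0.44) were higher. In DU145 DDX17, a helicase that works with DROSHA, was lower in both clones (-0.74 and -0.59), and in LIN28A-OE DU145 PARN, a poly(A) ribonuclease, was higher in both (0.29 and 0.30), whereas in IGROV1 mutant 2 it was lower (-0.76, adjusted p = 6.23e-09). None of the 8 chaperones was called in either IGROV1 clone against wild type, and 1 was higher in mutant 1 than in mutant 2. In mutant 1 of DU145 and of LIN28A-OE DU145 1 was higher than in wild type. Between the LIN28A-OE clones 4 were higher in mutant 1, against 37.6% of all genes called in either direction (2745 higher and 3110 lower of 15556).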

How the data were processed

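RNA from 36 cultures was sequenced as poly(A) mRNA and as small RNA. The deposited mRNA files hold raw gene counts per library, made by the authors with Trimmomatic 0.39, SortMeRNA, HISAT2 2.1.0 (hg38) and HTSeq; the annotation and strand setting are not given in the sources used here. The deposited small RNA files hold read counts per miRNA sequence from Chimira, summed here per miRNA. A miRDeep2 table was planned for the miRNAs, but its 72 sample columns match no sample label, so it was not used. Counts were fitted with edgeR 4.0.16 (R 4.3.3): filterByExpr, TMM, 9 group means, quasi-likelihood F test, Benjamini-Hochberg adjustment, threshold 0.01. DESeq2 1.42.0, other scalings, filters, sample sets and blocks were alternatives. Code was tested on simulated data. Replicate numbers paired the libraries (all 4 correlations of deviations over 0.1) in 3 of 9 comparisons. Transcript lengths and positions are from GENCODE 44. Members and lists were chosen with earlier results of these data known; named pathway genes were those called in the same direction in both clones of a background. Read counts are not independent molecules, so depth limits only counting error.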

Additional observations from a re-analysis of the deposited data

Results flagged for a closer look

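Of 90 sets of 4 libraries (10 genes in 9 groups), 5 held a library far from the other 3 by Dixon's ratio, where chance gives about 1 in 20. All 5 were IGROV1 libraries. DROSHA was at 71.6 CPM in wild-type replicate 4 (others 80.6 to 81.1) and at 69.2 CPM in mutant 1 replicate 2 (others 52.1 to 53.7). DGCR8 was at 46.5 CPM in mutant 2 replicate 2 (others 56.1 to 57.2), DICER1 at 89.0 CPM in wild-type replicate 2 (others 71.6 to 74.4) and XPO5 at 113.8 CPM in mutant 2 replicate 4 (others 120.5 to 121.8). Averaged over both clones, the mutant effect differed between IGROV1 and DU145 for PRKRA (-0.55 on the log2 scale, adjusted p = 0.00105) and AGO1 (-0.46, adjusted p = 0.00201), by an edgeR interaction test. The DU145 clones disagreed, at 0.004 and 0.53 for PRKRA and -0.50 and 0.40 for AGO1 (mutant 1 before mutant 2). For AGO1 the IGROV1 clones were at -0.50 and -0.51, near DU145 mutant 1. The AGO1 call was lost without DU145 wild-type replicate 4. These p-values measure the spread between passages, not between founders.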

How the results depend on the processing

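Of the 83 differences of members that were called as reported or in an alternative, none changed sign. They were picked by a call and refitted on largely the same counts, so a change of sign was unlikely from the start. Differences never called were not compared. The counts of members called that moved by over 1.5 times follow, with the reported count in parentheses. With DESeq2 they were 1 (0) in DU145 with both clones averaged, 5 (3) between the LIN28A-OE DU145 clones and 1 (0) and 3 (1) for the transgene in mutant 1 and mutant 2. With library totals they were 3 (5) in LIN28A-OE DU145 mutant 1, 1 (2) between the IGROV1 clones and 2 (6) between the wild-type lines; library totals moved the median of all genes by over 0.1 in DU145 mutant 2 (to 0.11), LIN28A-OE DU145 mutant 2 (to 0.14) and between the DU145 clones (to -0.11). With no filter IGROV1 with both clones averaged had 3 (5). At adjusted p under 0.05 the counts were 1 (0) in DU145 with both clones averaged, 6 (3) between the LIN28A-OE clones, 4 (2) for the IGROV1 against DU145 effect, and 1 (0) and 4 (1) for the transgene in mutants 1 and 2. In fits of the compared backgrounds alone they were 2 (5) in IGROV1 with both clones averaged, 1 (2) between its clones, 5 (3) between the LIN28A-OE clones, and 1 (0) and 2 (1) for the transgene in the mutants. For the same pair the replicate block gave 1 and 3, and a block of replicates 1 and 2 against 3 and 4 gave 1 and 2. Without the libraries low in long transcripts the counts were 5 (3) between the LIN28A-OE clones, 1 (0) for the LIN28A-OE against DU145 effect, 3 (1) for the transgene in wild type, and 1 (0) and 3 (1) in the mutants. With that deviation as a covariate they were 4 (2) in DU145 mutant 1, 2 (0) and 4 (2) in DU145 and LIN28A-OE DU145 with both clones averaged, 5 (3) between the LIN28A-OE clones, 4 (2) and 2 (0) for the 2 differences of effects, 2 (1) for the transgene in wild type, and 3 (0) and 3 (1) in the mutants. The cause of these moves was not tested.

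Leaving out single libraries gave 0 to 1 members in DU145 with both clones averaged, 1 to 2 in DU145 mutant 1, 2 to 5 between the lines, 2 to 6 in IGROV1 with both clones averaged, 1 to 3 for the IGROV1 against DU145 effect, 1 to 2 between the IGROV1 clones, 2 to 6 in LIN28A-OE DU145 mutant 1, 2 to 4 in mutant 2, 1 to 2 for the transgene in mutant 2 and 1 to 2 in wild type. Over the 60 called miRNA values the alternatives gave 43 to 68. Where the replicate numbers paired the libraries, the replicate block changed only the DICER1 call in LIN28A-OE DU145 mutant 2; in the other 6 comparisons 9 of 24 libraries correlated best with their own number. Over all genes, the number called for the difference of the LIN28A-OE and DU145 effects was 76 and moved to 170 with DESeq2, 223 at 0.05, 422 without the libraries low in long transcripts and 260 with the covariate. For the transgene in wild type, 1433 moved to 2885 at 0.05, 3671 without those libraries and 2899 with the covariate, and for mutant 1 of LIN28A-OE DU145 3920 moved to 6560 without them.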

Other observations

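DICER1 spanned the widest range of group means among the 10 genes. The genes whose log2 CPM over the 36 libraries was most like it, of 15555 others tested, were FNDC3A (Pearson's r = 0.947), USP38 (0.936) and BRWD1 (0.925). Among the members the likeness ran from 0.698 for DROSHA to -0.115 for AGO2. The libraries share groups, depth and the deviation of long transcripts, so these are descriptions.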
